A study of Rattus norvegicus with 2 samples.

Results

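The genes described here are 33 enzymes and transporters, mainly of phase II detoxification, the conjugation of reactive compounds, and of conjugate export. Epoxide hydrolases, carbonyl and quinone reductases and aldehyde dehydrogenases are among them, as are the cytochrome P450 enzymes and the P450 reductase that feed that route. The 33 genes were chosen by name, as every non-control probe whose gene name in the scanner files is a member, and all 33 had a probe among the 17760 gene symbols on the arrays. Expression was measured in IEC6 cells, an epithelial line from rat small intestine, 1 array for a dish given water for 60 min and 1 array for a dish given sodium trisulfide (Na2S3, an inorganic polysulfide that carries reactive sulfur) for 60 min. The dose was 100 uM Na2S3 by the sample's treatment label but 100 mM by the written protocol, and the conflict could not be settled here. Both dishes were in DMEM with low serum per the protocol, no replicate was analysed, and so every "higher" or "lower" below describes these arrays and carries no p-value.

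Phase II enzymes attach glutathione, glucuronate or sulfate to electrophiles and drugs, and ABCC pumps then move the conjugates out of the cell. The gut epithelium is a major site of this chemistry, since it meets food-borne compounds first. Many of the genes are controlled by NRF2, a transcription factor released when cysteines of its inhibitor KEAP1 are modified, through the antioxidant response element. CYP1 genes and some conjugation genes are controlled by the aryl hydrocarbon receptor (AhR) through the xenobiotic response element.

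To show which of these elements the members carry next to their start sites, the 250 bases upstream of the RefSeq start were read for both strands (RefSeq, GRCr8 build; 25 of the 33 members matched by symbol). The core TGACNNNGC of the antioxidant element was found for 5 of the 25 members (Gsta3, Gstm5, Gstp1, Ephx1 and Ugdh), and for 11.0% of all 27457 genes in the table. Genes with more than 1 window, Gsta3 and Ephx1 among the members, counted once if any window held the letters, and the same was done for all genes. The xenobiotic core GCGTG was found for 14 of 25 members, and for 28.4% of all genes. The AP-1 element TGACTCA was found for 3 of 25 members, Gstm5, Gstp1 and Ephx1, and for 4.42% of all genes. These matches are letters in a window and say nothing of binding. No window was at hand for Cyp1a1, Aldh3a1, Gstt1, Gstt2, Mgst2, Ephx2, Abcc3 and Abcc5, so their elements were not read. The 4 sequences below are shown because Gstp1 and Gstm5 hold antioxidant, AP-1 and xenobiotic letters while their signals differed little between the arrays, and because Abcc1 and Cyp1b1 are the members with the highest ratios. A xenobiotic core is held by Abcc1 and Cyp1b1 and also by Gstp1 and Gstm5. Besides Abcc1 and Cyp1b1, the members that hold it without an antioxidant core are Gsta4, Gstm4, Mgst3, Cbr1, Nqo2, Abcc4, Aldh3a2 and Por. Of these, Gsta4, Gstm4, Mgst3, Cbr1 and Nqo2 read lower with Na2S3. Abcc4, Aldh3a2 and Por stood near 0, with log2 ratios (Na2S3 over control) of 0.02, -0.05 and -0.02. Whether these letters have a part in the ratios was not tested. Capitals mark every match, some of which overlap, and each sequence is written 5′ to 3′ on the strand of the gene. They lie at chr1:210769706-210769955 (minus strand, Gstp1), chr2:198219519-198219768 (plus strand, Gstm5), chr10:1162368-1162617 (minus strand, Abcc1) and chr6:21094315-21094564 (plus strand, Cyp1b1) in GRCr8.
Gstp1: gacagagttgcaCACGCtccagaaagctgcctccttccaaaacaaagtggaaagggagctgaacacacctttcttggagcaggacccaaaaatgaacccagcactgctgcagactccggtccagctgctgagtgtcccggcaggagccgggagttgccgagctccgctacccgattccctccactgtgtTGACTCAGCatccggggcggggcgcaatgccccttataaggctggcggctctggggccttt
Gstm5: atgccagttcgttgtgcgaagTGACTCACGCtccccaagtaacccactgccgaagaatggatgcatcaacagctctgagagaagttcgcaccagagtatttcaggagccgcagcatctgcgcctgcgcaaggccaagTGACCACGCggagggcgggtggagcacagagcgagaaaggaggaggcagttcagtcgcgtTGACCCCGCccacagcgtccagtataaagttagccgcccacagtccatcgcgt
Abcc1: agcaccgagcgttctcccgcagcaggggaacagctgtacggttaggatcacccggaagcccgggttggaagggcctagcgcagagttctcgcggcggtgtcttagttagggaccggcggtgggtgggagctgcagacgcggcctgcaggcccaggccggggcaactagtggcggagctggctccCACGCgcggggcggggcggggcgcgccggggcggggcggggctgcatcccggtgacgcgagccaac
Cyp1b1: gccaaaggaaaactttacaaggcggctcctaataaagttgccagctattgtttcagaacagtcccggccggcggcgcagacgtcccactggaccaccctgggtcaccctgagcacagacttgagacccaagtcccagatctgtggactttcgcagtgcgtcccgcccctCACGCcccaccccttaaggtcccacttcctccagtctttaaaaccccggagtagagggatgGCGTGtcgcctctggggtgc

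In Gstp1 the sequence TGACTCAGC spans bases 61 to 53 before the start and is an antioxidant core and an AP-1 element at the same letters. Gstp1 also has a xenobiotic core on the opposite strand at bases 238 to 234. Gstm5 has antioxidant cores at bases 113 to 105 and 53 to 45 before the start, the former overlapping a xenobiotic core on the opposite strand, and its first capital stretch is an AP-1 element at bases 229 to 223 that overlaps another xenobiotic core at bases 224 to 220. Abcc1 has a xenobiotic core on the opposite strand at bases 66 to 62, and Cyp1b1 has one on the opposite strand at bases 81 to 77 and one on its own strand at bases 20 to 16.

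Of the 33 members, 28 were well above background on both arrays and 5 on neither (Gsta3, Gstk1, Gstm3, Ephx2 and Abcc2). These flags come from the scanner software, and 49.5% (control) and 49.0% (Na2S3) of all probes carried them. Those shares are per probe and per array. Counted by gene and on both arrays, as for the members, 10938 of the 17760 genes with a symbol were measured. No measured member reached a 2-fold difference: 0 of 28 were that much higher with Na2S3, beside 0.951% of all 10938 measured genes, and 0 of 28 that much lower, beside 0.503%. At 1.5-fold there were again 0 higher members, beside 2.86% of all measured genes, and 0 lower members, beside 2.47%. With shares this small over all genes, a list of 28 could hold none without standing apart. The median log2 ratio (Na2S3 over control) of the 28 was -0.12, with a range of -0.46 to 0.54, beside a median of -0.02 over all measured genes. The ratio was above 0 for 8 of the 28 members and below 0 for 20 (71.4%), while 54.2% of all measured genes were negative.

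**Figure D1:**
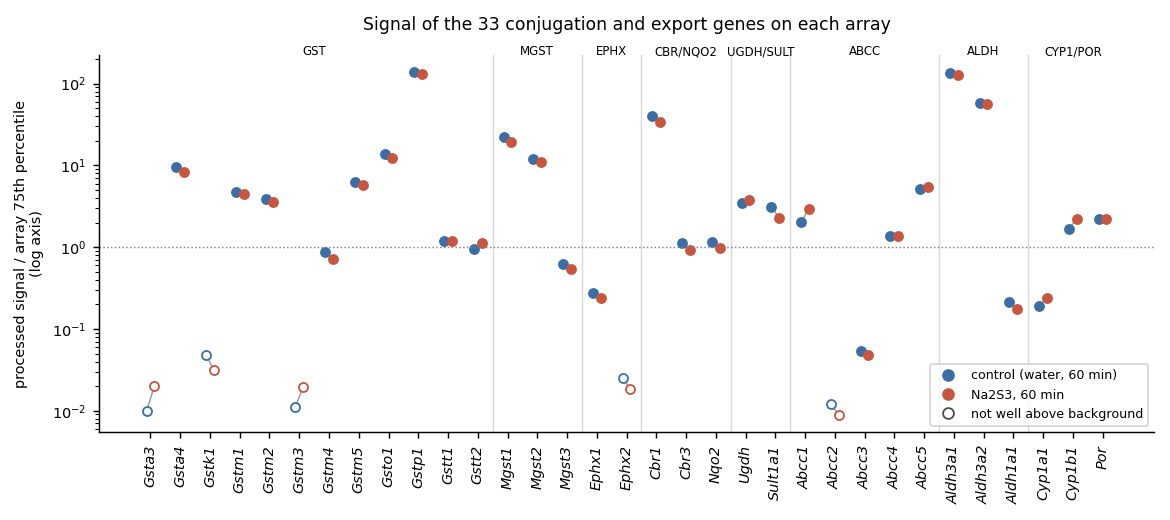
Processed signal of each member divided by its array's 75th percentile (log axis), blue for the control array and red for the Na2S3 array, with 1 point per array and no error bar since there are no replicates. Open circles mark the 5 members not well above background, and the pairs of filled points lie close together for all 28 measured members, so that no pair is 1.5-fold apart.

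Levels below are processed signals divided by the 75th percentile of the same array, written as "times the 75th percentile", which was 413 intensity units in the control and 478 with Na2S3. Signals of different probes are not comparable with each other, because each probe binds its target with its own strength. The spot error beside a ratio is the spread of repeat spots on these arrays at similar signal. It covers the spot only, neither the dish nor the labelling.

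Glutathione transferases join glutathione to electrophiles, and those of the cytosol and mitochondria made up the largest group, with 9 of 12 members measured and a median log2 ratio of -0.11 (range -0.26 to 0.21). Gstp1, the pi-class enzyme that marks early liver lesions in rats, read 137 times the 75th percentile in water-treated cells and 130 times in Na2S3-treated cells, a log2 ratio of -0.08. Its brighter probe was spotted 10 times, and the 10 spot pairs ran from -0.16 to 0.01, with 1 of 10 positive. Its other probe, also spotted 10 times, gave -0.09, but the probes share 17 bases and are not independent. The direction is not settled for Gstp1, since loess gave 0.11 and quantile normalization 0.09.

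The mu-class genes form a cluster of near copies on chromosome 2. Gstm1 read 4.75 times the 75th percentile in the control and 4.49 times with Na2S3 (log2 ratio -0.08), and its other probe, which overlaps the first by 29 bases, gave 0.02. Gstm2 read 3.83 and 3.54 times (-0.11), Gstm5 read 6.30 and 5.68 times (-0.15), and Gstm4 read 0.867 and 0.726 times (-0.26). The mu-class values thus lay within 0.26 of no change, and a spot error of 0.09 applies to each. Gstm3 was not well above background at either of its probes, at 4.57 and 3.71 intensity units in water-treated cells and 9.39 and 4.24 in Na2S3-treated cells, where the lowest signals flagged as above background were 18.3 and 20.5.

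The Gstm2 probe and 1 of the Gstm3 probes read the same stretch of these paralogs and are shown because the former is measured and the latter is not. Aligned without gaps over 53 bases they share 39 and differ at 14, marked in capitals, and the longest run in common is 12 bases. In rn4 coordinates of the files the Gstm2 probe lies at chr2:203551176-203552101, across a gap that its 60 bases do not fill, and the Gstm3 probe at chr2:203535630-203535689. Each has at least 1 reading frame without a stop codon. How far other mu-class transcripts bind the probes was not tested.
Gstm2: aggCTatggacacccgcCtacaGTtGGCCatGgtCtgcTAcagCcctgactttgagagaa
Gstm3: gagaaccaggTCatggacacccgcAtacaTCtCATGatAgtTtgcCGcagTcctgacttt

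The other transferases of this group gave small ratios as well. Gsta4, the alpha-class enzyme that conjugates the lipid aldehyde 4-hydroxynonenal, read 9.43 times the 75th percentile in the control and 8.24 times with Na2S3 (log2 ratio -0.20). Gsto1, the omega-class enzyme with thioltransferase activity, read 13.6 and 12.2 times (-0.15). Gstt1, of the theta class, read 1.17 times in water-treated cells and 1.18 times in Na2S3-treated cells, a ratio of 0.00.

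Gstt2, also of the theta class, is the member whose probes disagreed most. Its brightest probe read 0.959 and 1.11 times the 75th percentile (log2 ratio 0.21, spot error 0.09), while the others gave -0.35 (spot error 0.19) and -0.17 (spot error 0.32). The median over its 3 probes was -0.17, so Gstt2 has no settled direction. Gsta3, an alpha-class enzyme, had both probes below 10 intensity units on both arrays, and Gstk1, the kappa-class enzyme of mitochondria and peroxisomes, read 20.0 and 14.9 intensity units without the flag.

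The microsomal transferases were lower in the Na2S3 array by similar small amounts. Mgst1, a membrane-bound enzyme with peroxidase activity, read 22.2 and 19.3 times the 75th percentile (log2 ratio -0.20). Mgst2, which also makes leukotriene C4, read 11.8 and 10.9 times (-0.12), and 0 of its 9 usable spot pairs were positive, with a range of -0.18 to -0.06. Mgst3 read 0.618 and 0.546 times (-0.18), with spot pairs from -0.35 to 0.05. The spread between different probes of the same gene, over 2999 genes with several measured probes, was 0.23 (SD, log2), which is larger than each of these ratios.

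**Figure D2:**
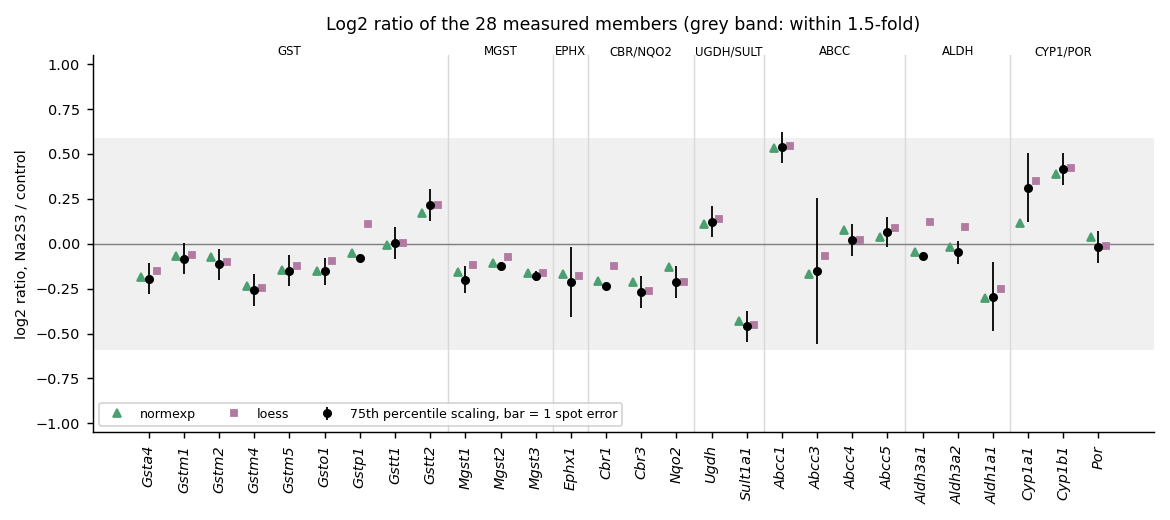
Log2 ratio (Na2S3 over control) of the 28 measured members, grouped by role, after 75th percentile scaling (black, bar of 1 spot error), normexp background correction (green) and loess (violet). All black points lie inside the grey band of 1.5-fold, with Abcc1 at 0.54 and Sult1a1 at -0.46 nearest its edges.

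Of the hydrolases and reductases that act on epoxides and carbonyls, 4 of 5 were measured. Ephx1, the microsomal epoxide hydrolase, read 0.277 and 0.239 times the 75th percentile (log2 ratio -0.21, spot error 0.19). Ephx2, which opens epoxides of fatty acids, read 10.5 and 8.79 intensity units and was not well above background. Cbr1, a carbonyl reductase, read 40.5 and 34.4 times (-0.24), and its 10 spot pairs ran from -0.31 to -0.13. A second Cbr1 probe gave -0.21, and loess brought the brighter probe to -0.12. Cbr3 read 1.11 and 0.921 times (-0.27), and Nqo2, a quinone reductase, read 1.15 and 0.989 times (-0.21). Cbr1, Cbr3 and Nqo2 were therefore all lower with Na2S3, and none of the 3 reached 1.5-fold.

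Sult1a1 had the lowest ratio of the members. This phenol sulfotransferase read 3.13 times the 75th percentile in the control and 2.28 times with Na2S3, 1.38-fold lower (log2 ratio -0.46, spot error 0.09, 1 probe spotted once). Of all measured genes, 4.50% were as low or lower. The value ran from -0.46 to -0.42 over the alternatives tried. Ugdh, which makes the UDP-glucuronate used in glucuronidation, read 3.48 and 3.79 times (0.12).

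Abcc1, which encodes the exporter MRP1 for glutathione conjugates and leukotriene C4, had the highest ratio of the members. It read 2.03 times the 75th percentile in water-treated cells and 2.95 times in Na2S3-treated cells, 1.45-fold higher (log2 ratio 0.54, spot error 0.09, 1 probe spotted once). Of all measured genes, 3.43% were as high or higher, and the value ran from 0.53 to 0.58 over the alternatives tried. This probe lies at chr10:452239-452298 in rn4. A second Abcc1 probe was flagged in the Na2S3 array alone, at 11.1 intensity units in the control and 21.6 with Na2S3. With normexp its log2 ratio was -0.05. The second probe is too dim to check the first.

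The other exporters lay close to no change or were not detected. Abcc4, which exports cyclic nucleotides and prostanoids, read 1.35 and 1.37 times the 75th percentile (log2 ratio 0.02), and its other probe gave 0.21 (spot error 0.16). Abcc5, a cyclic nucleotide exporter, read 5.20 and 5.44 times (0.07). Abcc3, the basolateral exporter of glucuronides, was barely above background at 22.4 and 23.2 intensity units, and its ratio of -0.15 has a spot error of 0.41. Abcc2, the apical exporter of bilirubin glucuronide, read 5.04 and 4.22 intensity units and was not well above background.

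The aldehyde dehydrogenases were measured in full and showed no 1.5-fold difference. Aldh3a1, which oxidises aromatic and lipid aldehydes and responds to AhR in rats, read 135 times the 75th percentile in water-treated cells and 129 times in Na2S3-treated cells (log2 ratio -0.07), with 1 of 10 spot pairs positive. Aldh3a2, the fatty aldehyde dehydrogenase, read 58.6 and 56.7 times (-0.05). Loess gave 0.12 for Aldh3a1 and 0.09 for Aldh3a2, so neither has a settled sign. The 705 genes with a mean log2 signal of 14 or more had a median of -0.14. Aldh1a1, a retinaldehyde dehydrogenase, read 0.212 and 0.173 times (-0.29, spot error 0.19).

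Both AhR-controlled P450 genes had positive ratios, and Por, the reductase that supplies P450 enzymes with electrons, stood near 0. Cyp1b1 read 1.67 times the 75th percentile in the control and 2.23 times with Na2S3, 1.34-fold higher (log2 ratio 0.42, spot error 0.09, at chr6:2548567-2548626 in rn4). Its other probes gave 0.38 (spot error 0.09) and 0.26 (spot error 0.16), so all 3 were positive. With normexp the faintest of the 3 stood at 0.11. Cyp1a1 read 0.193 and 0.240 times (0.31, spot error 0.19) at 1 dim spot, and normexp gave 0.12. Por read 2.22 and 2.19 times (-0.02).

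**Figure D3:**
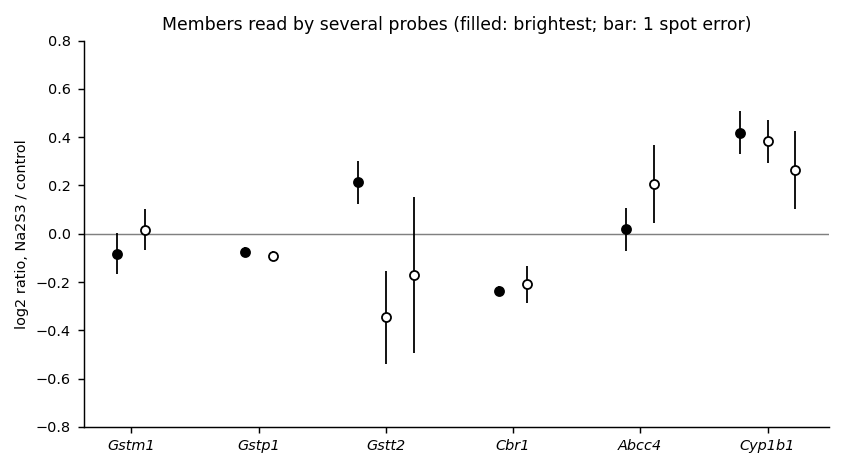
Log2 ratio (Na2S3 over control) at each measured probe of the 6 members that had several, filled for the brightest probe and open for the others, with bars of 1 spot error. The 3 probes of Cyp1b1 lie between 0.26 and 0.42 and those of Cbr1 at -0.24 and -0.21, whereas the probes of Gstt2 lie on both sides of 0.

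Against the spot error alone, 9 of the 28 members (32.1%) differed by more than 3 spot errors, beside 21.6% of all measured genes. Abcc1 and Cyp1b1 were on the higher side, with 9.26% of all genes, and Sult1a1, Cbr1, Cbr3, Gstp1, Aldh3a1, Mgst2 and Mgst3 on the lower side, with 12.3% of all genes. Gstp1, Cbr1, Aldh3a1, Mgst2 and Mgst3 are the 5 members read by a probe spotted 10 times, for which the spot error is smallest, and 67.8% of all 614 genes read by such a probe were beyond 3 spot errors. Of the 23 members read by 1 spot, 4 were beyond it, beside 18.1% of all such genes. The side depends on the scaling: with loess or quantile normalization Gstp1 and Aldh3a1 were beyond 3 spot errors on the higher side. Cbr3 was within 3 spot errors under loess, quantile normalization and normexp, and Mgst2 under loess, whereas Abcc1, Cyp1b1, Sult1a1, Cbr1 and Mgst3 stayed beyond it on the same side under these 3 settings. A small spot error does not stand in for a replicate dish.

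**Figure D4:**
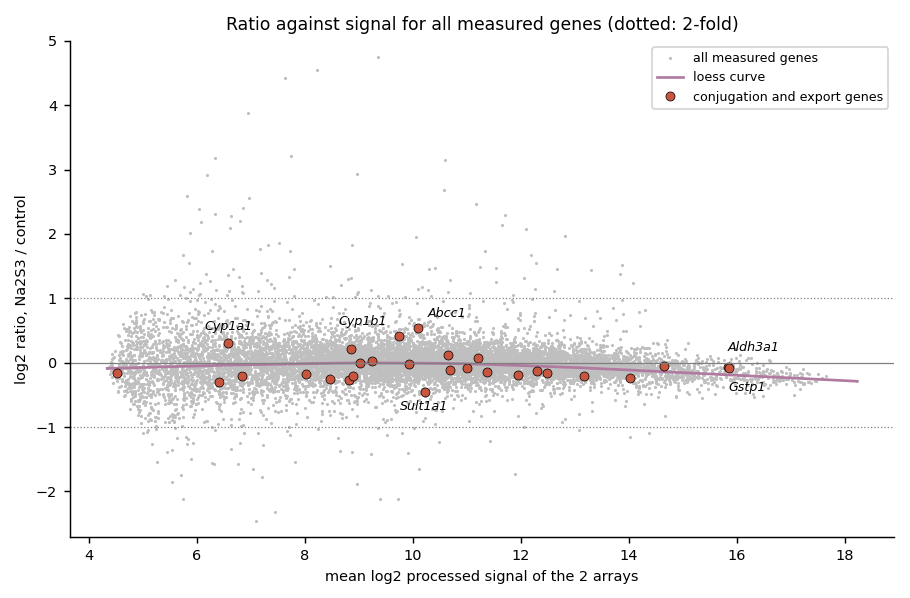
Log2 ratio (Na2S3 over control) against the mean log2 processed signal of both arrays for the 10938 measured genes (grey) and the 28 measured members (red), with the loess curve (violet) and dotted lines at 2-fold. No member lies outside the dotted lines, and Gstp1 and Aldh3a1 lie above the curve, which falls below 0 at high signal.

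The other enzymes and carriers of the route were 101 genes in 5 lists, of which 92 had a probe. They were mostly not measured, and those measured gave small ratios. Of the 41 measured, 0 were 1.5-fold higher, 1 was 1.5-fold lower, and the median log2 ratio was -0.08. Among glutathione transferases outside the members 7 of 15 were measured (median -0.03). Of the 22 UDP-glucuronosyltransferase and substrate supply genes only 15 had a probe, and 3 were measured (median -0.08). The rest of those 22 without a probe could not be read at all. The 22 sulfo-, methyl- and acetyltransferases all had a probe, and 7 were measured (median -0.05). Among the quinone, aldehyde and P450 partners 13 of 20 were measured (median -0.14), and Dhrs4, a carbonyl and retinal reductase, was the 1 gene that was 1.5-fold lower (log2 ratio -1.01). Of the other exporters and mercapturate steps 11 of 22 were measured (median -0.07). Nqo1, the NRF2-controlled quinone reductase, read 8.88 times the 75th percentile in water-treated cells and 9.60 times in Na2S3-treated cells (0.11).

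The regulators of these genes had larger ratios. All 13 measured regulators of 16 had a positive log2 ratio, 6 were at least 1.5-fold higher (2.86% of all measured genes were) and the median was 0.49. With normexp 12 of 13 were positive, 4 were at least 1.5-fold higher and the median was 0.32. The median of 0.49 is the value of Ppara, a nuclear receptor close to background with a spot error of 0.41, which stood at 0.06 under normexp, and Rxra, the partner of such receptors, went from 0.10 to -0.09. Nfe2l2, which encodes NRF2, read 10.8 and 14.5 times the 75th percentile (0.42), and Keap1 read 0.405 and 0.433 times (0.10). The small MAF genes, partners of NRF2 on the antioxidant element, stood at 1.95 for Maff, 1.16 for Mafk and 1.12 for Mafg, with Mafk at 0.81 under normexp, and Bach1, a repressor at that element, at 0.61 (0.28 under normexp). On the AhR side, Tiparp, a target and repressor of AhR, read 8.51 and 14.1 times (0.73). Ahr itself gave 0.59 at a dim spot (0.39 under normexp), its partner Arnt 0.05 (0.30 as the median over its probes) and its repressor Ahrr 0.18. Ahr and Bach1 were thus under 1.5-fold with normexp. The list of NRF2 targets outside conjugation had 11 of 12 measured members, with 5 at least 1.5-fold higher, also under normexp: Osgin1 (2.55), Srxn1 (2.29), Slc7a11 (2.09), Hmox1 (1.02) and Txnrd1 (0.72). Osgin1 and Slc7a11 were dim in the control, and normexp gave 1.61 and 1.08 for them. The other 6 lay between -0.42 and 0.26. The differences between these lists and the members were not tested, since there is 1 array per group.

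**Figure D5:**
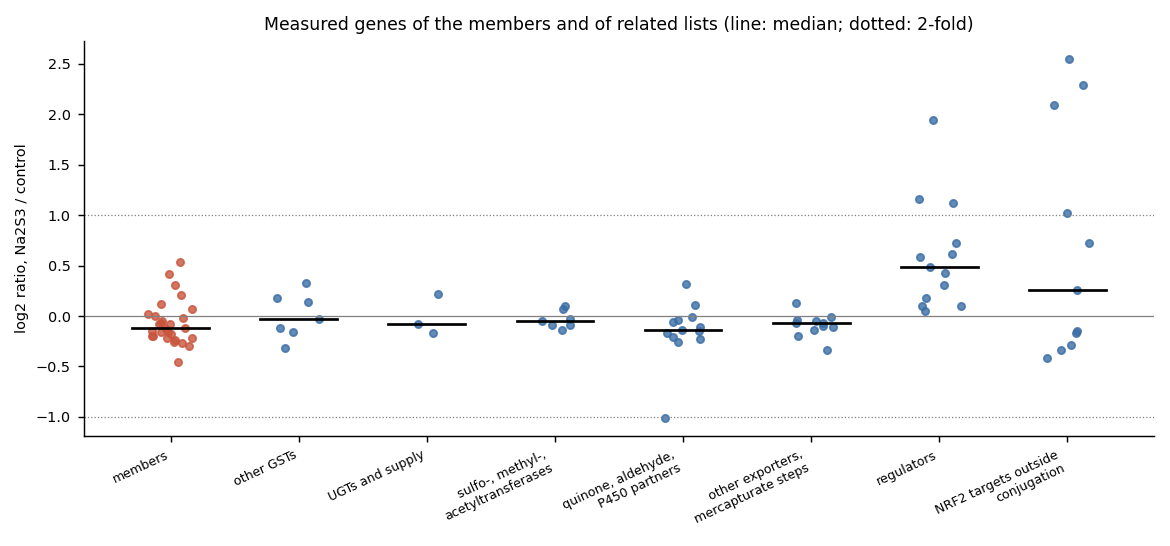
Log2 ratio (Na2S3 over control) of each measured gene, for the members (red) and 7 related lists (blue), with the list median as a black line and dotted lines at 2-fold. The members span -0.46 to 0.54, while the regulators reach 1.95 and the NRF2 targets outside conjugation 2.55.

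The line was checked against its label. Of 24 intestinal epithelial markers 8 were measured: Cdh1, Krt8, Krt18, Krt19, Cdx1, Cdh17, Lct and Ascl2. Cdh1 read 35.6 and 34.1 times the 75th percentile (control and Na2S3), Krt8 38.4 and 38.3 times, Cdh17 5.73 and 5.68 times and Cdx1 5.05 and 4.29 times. Krt19 read 0.520 and 0.526 times, Ascl2 0.444 and 0.410 times, Krt18 0.344 and 0.332 times and the brush-border gene Lct 0.130 and 0.121 times. Muc2 had no probe, and the other 15, among them Epcam, Cdx2, Vil1, Fabp2, Si and Alpi, lacked the flag on at least 1 array. Of 14 fibroblast and smooth muscle markers 11 were measured, with a median log2 ratio of -0.06 (range -0.43 to 0.74). In that list 1 marker was at least 1.5-fold higher with Na2S3, beside 2.86% of all measured genes. Several were bright: Col3a1 read 222 and 228 times, Col1a1 173 and 147 times, Col1a2 81.7 and 60.8 times, Vim 93.6 and 95.0 times and Dcn 47.3 and 47.8 times. Others were dim: Thy1 read 0.311 and 0.244 times, Des 0.257 and 0.247 times and Acta2 0.159 and 0.132 times. S100a4, Fn1 and Myh11 were also measured, and Pdgfra, Pdgfrb and Lum lacked the flag. The epithelial label is thus only partly borne out by these markers. Of 10 hepatocyte markers 0 were measured, and of 11 immune and endothelial markers 5 were, with a median of -0.27. The part of these markers in the members' ratios was not tested.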

How the data were processed

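Total RNA of 1 control and 1 Na2S3 dish of IEC6 cells was labelled with Cy3 and hybridised to 1 Agilent array each, per the labels' protocols. The scanner files hold spot intensity values from Agilent Feature Extraction 10.7.1.1 per the file headers (the submitters' processing notes name 9.5.1.1), with spatial and multiplicative detrending and surrogate values for dim spots switched on and separate background correction off. The authors' value table, also intensity on a linear scale, has a median of 19.3 in both columns, and no source at hand says how it was normalized. It follows each array's processed signal (Pearson r 0.99997 over probes). Its member log2 ratios lay next to those after quantile normalization, for example 0.09 under both for Gstp1 and 0.10 under both for Aldh3a1.

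Groups came from the treatment label. Of 58717 non-control spots, outlier-flagged ones (448 and 390) were left out, and 0 were saturated. Spots of a probe were averaged as log2 and each array's 75th percentile subtracted, which removed a shift of 0.21. A probe counted as measured when over 50% of its spots were well above background on both arrays, and a gene took its brightest measured probe. Genes are those with a symbol in the file. RefSeq accessions (GRCr8 table) gave the same symbol for 43 of the 44 member probes, and 1 had no match. Probe coordinates are rn4, and their exon or UTR position was not analysed here. The spot error is the SD of spot-pair ratios of probes with at least 5 usable repeats, in signal bins, divided by the root of the number of spots.

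No test was possible with a single array for each condition, and members were counted by fixed sizes of 2-fold and 1.5-fold beside all measured genes. The text names every member, pathway genes that were 1.5-fold different, Nqo1 and the main regulators. Examples from marker lists were chosen after their values were seen. Members and lists were chosen with earlier results of these data known. The procedure was tested on simulated arrays with planted differences of at least 2-fold and the spot noise alone. That test held no dish or labelling spread and does not bear on differences as small as those of the members. Python 3.11.15, R 4.3.3 and limma 3.58.1 (normexp with offset 50, quantile, loess) were used.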

Additional observations from a re-analysis of the deposited data

How the results depend on the processing

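The 10 alternatives were normexp background correction, quantile, median, loess and spike-in scaling, the deposited value table, no filter on dim probes, outlier spots kept, the median over probes and names by accession. The number of measured members was 28 under each of them but the lack of a filter, which counts all 33. The counts of members past 2-fold stayed at 0 under every alternative. Those past 1.5-fold stayed at 0 except with no filter on dim probes, where 2 were higher (the undetected Gsta3 and Gstm3) and 1 lower (Gstk1), since genes below background then enter. The median of the members ran from -0.14 (median over probes) to -0.07 (loess), and spike-in scaling, from 7 probes with a shift of 0.17 in place of 0.21, gave -0.08. The median over all measured genes moved as well, from -0.02 in the main setting to 0.02 with loess and 0.02 with spike-in scaling. Of 28 measured members, 22 kept 1 sign under all alternatives, 6 positive and 16 negative. The signs of Gstp1, Gstt1, Gstt2, Aldh3a1, Aldh3a2 and Por differed between settings. Of 280 member values under alternatives, 27 moved by more than their spot error. That total holds many values that could hardly move. Median scaling, names by accession and no filter on dim probes left the measured members unchanged or nearly so. The median over probes could change only the 6 members with several measured probes. The deposited value table gave nearly the same member values as quantile normalization. Signal over background limits Abcc3, Cyp1a1, Ephx1 and Aldh1a1, whose spot errors are 0.19 to 0.41. No paired analysis was possible because each group is 1 array.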

Other observations

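Dhrs4, which encodes a reductase of carbonyl compounds and retinal, was the measured gene of the related enzyme and transporter lists that differed by 1.5-fold or more, and its probes are given here in full. It was lower in the Na2S3 array at both of its probes. The brighter probe read 2.09 times the 75th percentile in the control and 1.04 times with Na2S3, 2.01-fold lower (log2 ratio -1.01, spot error 0.09), at chr15:33620629-33620688 in rn4. The other probe read 0.862 and 0.460 times, 1.87-fold lower (-0.91, spot error 0.09), and its coordinates overlap those of the first. Normexp gave -0.87, the median over probes -0.96 and spike-in scaling -0.97, all 3 short of 2-fold, so its place past 2-fold depends on these settings while its direction does not. The members Cbr1 and Cbr3, carbonyl reductases as well, stood at -0.24 and -0.27.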
